A study of Homo sapiens with 12 samples.

Results

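The lysosome is the acidic compartment in which cells digest proteins, glycans, lipids and nucleic acids. Its lumen holds acid hydrolases with their protein cofactors, its membrane carries heavily glycosylated proteins, channels and transporters, and the vacuolar H+-ATPase (V-ATPase) pumps in the protons that keep the lumen acid. Many lysosomal genes share a short promoter word read by TFEB, TFE3 and MITF, the MiT/TFE transcription factors. The 53 genes described here were chosen by name from a table of 60612 named rows: 10 encode lysosomal membrane proteins, 36 encode lumenal hydrolases or their cofactors and 7 encode V-ATPase subunits or accessory proteins. All 53 were found and all passed the filter on low counts in every comparison.

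RNA was sequenced from ZR-75-1, a line of human breast cancer cells that express the oestrogen receptor. Cells carried a non-targeting guide (sgControl) or a CRISPR–Cas9 knockout of *RB1*, which encodes the retinoblastoma protein Rb, and were grown for 5 days with DMSO or with abemaciclib at 500 nM, which inhibits the kinases CDK4 and CDK6. All cells shared the same serum-containing medium. Each of the 4 groups had 3 replicates, and the study's methods describe knockout lines grown from single sorted cells, so a difference between genotypes may also be a difference between clones and the 2 cannot be told apart here. The study describes the replicates of its knockout RNA-seq as biological ones, and the p-values measure the spread between replicates of these lines, not between clones.

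Libraries held 39907318 to 81636393 counts. *RB1* was at 4577 ± 368 normalized counts (SD, n = 3) in sgControl cells in DMSO and at 46.8 ± 6.26 in knockout cells in DMSO, and its raw counts in knockout libraries were 29 to 63. Summed levels of 7 luminal epithelial markers were 624600 to 966200 normalized counts per library. The sum of 4 basal or mesenchymal markers did not exceed 24.6 and that of 5 leukocyte markers did not exceed 35.8, with CD3E at 0 throughout. Of 4 fibroblast markers, COL1A1 made up nearly all of the sum, which was 1879 to 2393 in DMSO libraries and 2557 to 3031 with abemaciclib, and 3 endothelial markers summed to 21.4 to 38.4 and to 86.3 to 102. Mitochondrial genes took 2.82% to 3.98% of counts in sgControl DMSO libraries and 7.22% to 8.53% with abemaciclib, and 3.78% to 4.13% and 5.44% to 7.39% in knockout libraries. Between replicates the chi-square per gene was 45.7 and 95.2 for sgControl DMSO replicate 1 against replicates 2 and 3, and 3.32 to 16.6 for every other pair within a group. In bulk RNA, fewer cells of a type and less RNA per cell cannot be told apart, and a normalized count is relative to the other genes of its library rather than an amount per cell.

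The word that MiT/TFE factors are known to read, TCACGTG on either strand, was searched in the promoters of the members. RefSeq promoters (GRCh38.p14, 250 bases before to 50 after the start) were at hand for 36 of the 53 genes. Of these, 9 (25.0%) held TCACGTG, against 3.82% of all 27305 promoters and 4.78% of 15843 protein-coding promoters. Its palindromic form TCACGTGA, in which the shorter word is found on both strands, was in 6 member promoters (16.7%) against 1.04% of all promoters. The core CACGTG, contained in both, was in 10 (27.8%) against 7.43%. The E2F words TTCCCGCC and TTGGCGCC were in 1 and 0 of the 36 promoters, against 3.18% and 1.05% of all. The members were chosen by name as lysosomal genes, many of which share the word, so these shares say nothing about the responses measured here. These counts describe letters in a window and are not evidence of binding.

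The promoter stretches of 6 genes that carry a result below are shown because they hold the word, and capitals mark every match that lies in the shown stretch. Positions count from the RefSeq start, with -1 as the base before it. *MCOLN1* had TCACGTGA at -42 and -15, *GAA* at -77 and -32 (the second lies in an exon of another transcript and is not shown), and *LAMP1* had 4 copies of TCACGTG between -193 and -143, one TCACGTGA at -29 and one that runs across the start. *NEU1*, *CTSD* and *CTSF* had 1 copy each, that of *CTSF* inside an annotated exon of a longer transcript.
MCOLN1, chr19:7522542-7522623, plus strand: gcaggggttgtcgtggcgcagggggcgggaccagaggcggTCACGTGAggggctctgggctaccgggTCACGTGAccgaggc
GAA, chr17:80101464-80101532, plus strand: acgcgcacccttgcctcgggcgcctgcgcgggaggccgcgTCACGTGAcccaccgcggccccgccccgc
NEU1, chr6:31862906-31862988, minus strand: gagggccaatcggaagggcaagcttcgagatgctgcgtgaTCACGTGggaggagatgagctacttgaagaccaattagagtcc
CTSD, chr11:1763965-1764014, minus strand: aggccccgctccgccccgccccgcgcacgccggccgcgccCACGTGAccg
CTSF, chr11:66568712-66568740, minus strand: catataacaagCACGTGAtagaggtcagt
LAMP1, chr13:113297006-113297238, plus strand: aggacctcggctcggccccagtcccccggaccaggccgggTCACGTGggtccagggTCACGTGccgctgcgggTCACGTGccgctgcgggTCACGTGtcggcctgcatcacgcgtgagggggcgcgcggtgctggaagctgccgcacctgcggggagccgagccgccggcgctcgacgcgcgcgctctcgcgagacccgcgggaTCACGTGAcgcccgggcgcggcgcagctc

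The first question was how the lysosomal genes responded to abemaciclib in cells with Rb. In sgControl cells 43 of the 53 genes rose, 3 fell (*ARSB*, *CTSH* and *LAPTM4B*) and 7 did not pass an adjusted p of 0.05 by DESeq2. Without sgControl DMSO replicate 1, the library that stood apart, 44 rose and 5 fell. The mitochondrial share and the fibroblast and endothelial sums were higher with abemaciclib as well, with no overlap between treatments, and their part in the lysosomal responses was not tested. Over all 22723 genes tested, 25.0% rose and 24.8% fell. A mean of 100 normalized counts or more was reached by 11885 genes, among them 49 of the 53 members, and of these 11885 genes (the expressed genes below) 34.6% rose and 38.0% fell. The members' median log2 fold change was 0.69 against 0.00647 over all genes tested. At least 2-fold rises were seen for 15 of the 53 members and for 2202 of the 22723 genes tested. Together they took 0.679% ± 0.029 (SD, n = 3) of the counts in DMSO and 1.14% ± 0.013 in abemaciclib. The 3 libraries on abemaciclib held 1.12% to 1.15%, all above the 0.652% to 0.71% of the DMSO libraries.

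**Figure D1:**
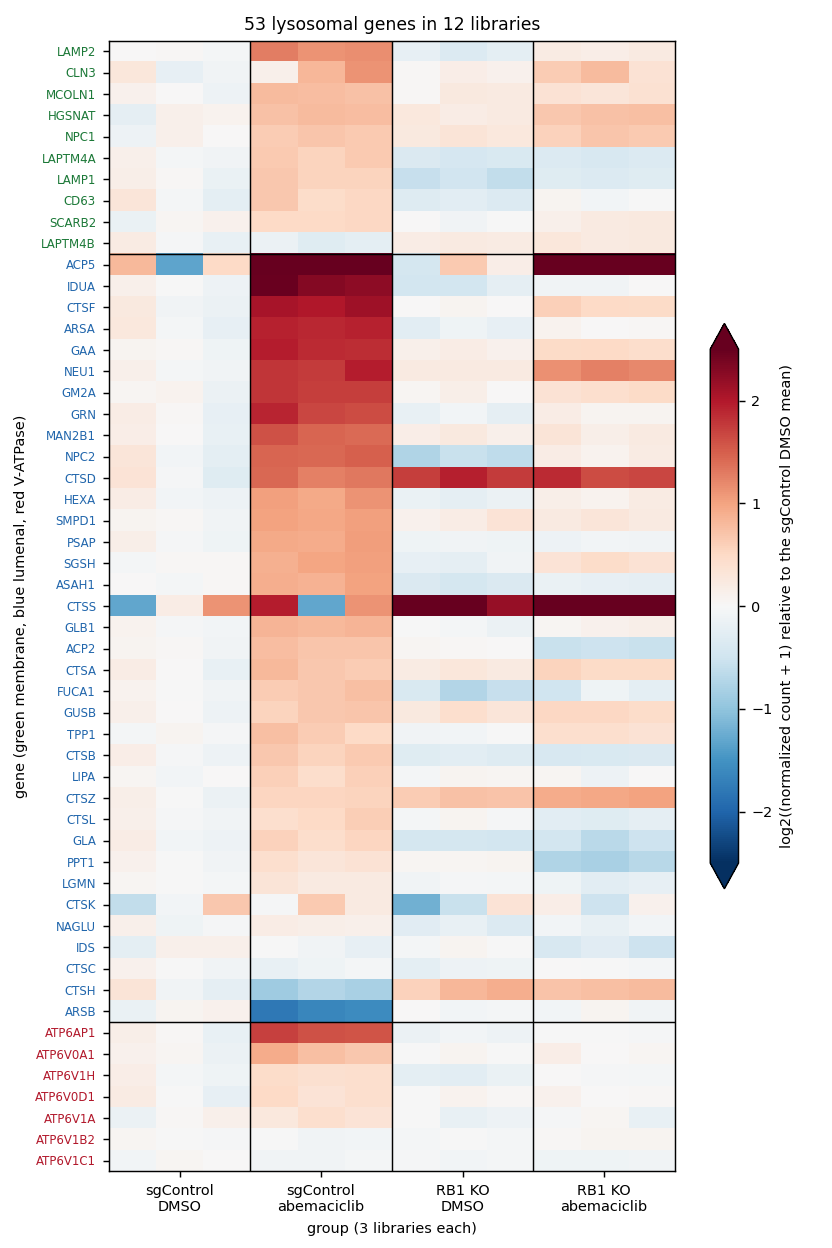
Log2 of the normalized count plus 1 of each of 53 lysosomal genes (rows) in 12 libraries (columns, 3 per group), relative to the mean of the sgControl DMSO libraries, with the colour scale ending at 2.5 in either direction. Red dominates the sgControl abemaciclib columns, where 43 of 53 genes rose, and is paler in the knockout abemaciclib columns. The 23 rises in knockout cells are relative to knockout DMSO libraries, so colour in the knockout columns mixes genotype and drug.

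Among the chosen members, the medians of the classes differed. Of the lumenal genes 29 of 36 rose and 2 fell, with a median log2 fold change of 0.774. Of the membrane genes 9 of 10 rose and 1 fell, with a median of 0.64, and of the V-ATPase genes 5 of 7 rose, with a median of 0.409. Classes were not tested against each other. In the wider lists of other genes counted below, the order of membrane and V-ATPase genes was reversed. Their medians were 0.68 for V-ATPase genes, 0.13 for membrane genes and 0.814 for hydrolases and cofactors. These medians also take in listed genes with too few counts for the test. Within the lumen, the 4 cofactors and carriers all rose (median 1.59), as did all 6 lipid hydrolases and phosphatases (0.821), 9 of 10 glycosidases (0.93) and 8 of 12 proteases (0.582), while of the 4 sulfatases 2 rose and 1 fell.

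Among glycosidases, *IDUA*, which removes iduronate from glycosaminoglycans, rose most among the expressed members. It was at 539, 494 and 456 normalized counts in sgControl cells in DMSO and at 2745, 2427 and 2347 in abemaciclib. In knockout cells the values were 362, 358 and 426 in DMSO and 465, 468 and 496 in abemaciclib. Every sgControl library on abemaciclib lay far above the other 9, and the knockout libraries did not overlap between treatments but stayed below 539. The log2 fold change was 2.34 ± 0.09 (SE; adjusted p = 1.59e-135) in sgControl cells and 0.32 ± 0.11 (adjusted p = 0.0115) in knockout cells.

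*GAA* encodes acid alpha-glucosidase, which breaks down glycogen. Its counts were 10167, 10022 and 9119 in sgControl DMSO libraries and 38253, 35716 and 35248 with abemaciclib. Knockout libraries held 10654, 11168 and 10463 in DMSO and 13585, 13719 and 13305 with the drug. Thus *GAA* rose 3.73-fold in sgControl cells (adjusted p = 7.32e-251) and 1.26-fold in knockout cells (adjusted p = 7.45e-08), with no overlap between treatments in either genotype. The sialidase *NEU1* kept more of its response without *RB1*. It was at 2796, 2461 and 2415 in sgControl DMSO libraries and at 8840.1, 8559 and 9887 with abemaciclib, a 3.56-fold rise (adjusted p = 3.14e-142). Knockout values were 2976, 2995 and 2983 in DMSO and 5649, 6076 and 5847 with abemaciclib, a 1.96-fold rise (adjusted p = 9.44e-39). The remaining glycosidases that rose in sgControl cells were *MAN2B1*, *HEXA*, *GLB1*, *FUCA1*, *GUSB* and *GLA*, with log2 fold changes of 0.51 to 1.48, and *NAGLU* did not pass (0.15 ± 0.07).

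Of the proteases, *CTSF* (cathepsin F, a cysteine protease) rose most. Its values were 3578, 2842 and 2726 in sgControl DMSO libraries, 12606, 12070.5 and 13128 with abemaciclib, 3067, 3186 and 3048 in knockout DMSO libraries and 4597, 4280.0 and 4220.3 with abemaciclib. The log2 fold change was 2.05 ± 0.09 in sgControl cells (adjusted p = 2.83e-116) and 0.49 ± 0.09 in knockout cells (adjusted p = 5.72e-07). *CTSD* encodes the aspartic protease cathepsin D and reached its highest counts in knockout cells. In sgControl cells it was at 31900.0, 24643 and 20484 in DMSO and at 68314, 60583 and 63042 in abemaciclib, a 2.49-fold rise (adjusted p = 1.06e-24). In knockout cells it was already at 83159, 96778 and 85242 in DMSO and was at 92624, 77809 and 80889 in abemaciclib. The knockout libraries overlapped between treatments, and each of the 6 lay above every sgControl library.

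*CTSZ*, another cysteine cathepsin, also had both a drug and a genotype difference. It was at 1837, 1655 and 1501 in sgControl DMSO libraries, 2403, 2395 and 2429.6 with abemaciclib, 2592, 2765 and 2711 in knockout DMSO libraries and 3144, 3225 and 3309.5 with abemaciclib. No 2 groups overlapped. *CTSH*, which trims amino termini, went down: sgControl values were 452, 340.2 and 311 in DMSO and 195, 217 and 208 with abemaciclib, a fall of 1.77-fold (adjusted p = 1.86e-08). Knockout libraries held 541, 647 and 679 in DMSO and 596, 612 and 629 with abemaciclib, which overlapped. *CTSB*, *CTSA*, *CTSL*, *TPP1* and *LGMN* rose by log2 0.27 to 0.70 in sgControl cells, and *CTSC* did not pass (-0.12 ± 0.07).

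A pair of adjacent genes on chromosome 1 for cathepsins best known from other cell types was barely detected. *CTSK*, known from osteoclasts, was at 14.9, 22.0 and 37.8 in sgControl DMSO libraries, 22.6, 37.2 and 27.3 with abemaciclib, 9.6, 15.4 and 29.6 in knockout DMSO libraries and 26.0, 15.8 and 25.2 with abemaciclib, and no comparison passed. *CTSS*, known from antigen-presenting cells, was at 0.0, 1.8 and 4.4 in sgControl DMSO libraries and 8.6, 0.0 and 4.4 with abemaciclib. In knockout cells it was at 16.4, 17.6 and 10.2 in DMSO and at 109.8, 89.5 and 70.6 with abemaciclib. The knockout libraries did not overlap between treatments, and the rise of log2 2.61 ± 0.46 passed (adjusted p = 2.29e-07) while that in sgControl cells did not (adjusted p = 0.357). The difference between the responses did not pass either (1.75 ± 0.87, adjusted p = 0.0952). It passed without sgControl DMSO replicate 1 (2.26, adjusted p = 0.0182) or sgControl abemaciclib replicate 1 (2.67, adjusted p = 0.0197) and was 0.42 without sgControl DMSO replicate 3 (adjusted p = 0.826). In knockout libraries on abemaciclib the 5 leukocyte markers summed to 35.1 to 35.8 normalized counts, against 9.69 to 30.1 in the other libraries, and their part in the *CTSS* values was not tested.

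Cofactors carry lipids to the enzymes or are precursors of small activator proteins. *PSAP*, the precursor of the saposins, was at 34783, 30699 and 29257 in sgControl DMSO libraries and at 61017, 60246 and 64984 with abemaciclib, a 1.97-fold rise (adjusted p = 1.2e-52). Knockout values were 29048, 29759 and 29118 in DMSO and 29007, 29924 and 29454 with abemaciclib, which overlapped (0.01 ± 0.06, adjusted p = 0.952). *NPC2*, which hands cholesterol to the membrane protein NPC1, was at 3475, 2700.5 and 2384 in sgControl DMSO libraries and at 7766, 7628 and 7890.4 with abemaciclib. In knockout cells it was at 1674, 1922 and 1826 in DMSO and 3223, 2999 and 3247 with abemaciclib. It rose 2.72-fold in sgControl cells (adjusted p = 1.35e-39) and 1.75-fold in knockout cells (adjusted p = 8.7e-12) from a lower start. *GRN* (progranulin) and *GM2A* (the GM2 activator) rose by log2 1.73 and 1.75 in sgControl cells and by 0.27 and 0.36 in knockout cells.

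The sulfatases split. *ARSA*, which desulfates sulfatide, was at 1373, 1114 and 992 in sgControl DMSO libraries and 4379.6, 4240.2 and 4354 with abemaciclib, a 3.74-fold rise (adjusted p = 2.37e-83). Knockout libraries held 955, 1073 and 998 in DMSO and 1225, 1152 and 1178 with abemaciclib, which did not overlap although the change did not pass (0.23 ± 0.10, adjusted p = 0.0695). *ARSB*, which acts on dermatan and chondroitin sulfate, went the other way. It was at 1288, 1520.4 and 1563 in sgControl DMSO libraries and at 419, 470.2 and 487 with abemaciclib, a fall of 3.17-fold (adjusted p = 5.02e-72). All 6 knockout libraries, 1470.0, 1386 and 1413 in DMSO and 1385, 1517 and 1369 with abemaciclib, lay within the range of the sgControl DMSO libraries. *SGSH* rose 1.96-fold in sgControl cells and *IDS* did not pass (-0.11 ± 0.10).

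Among lipid hydrolases and phosphatases, *PPT1*, which takes palmitate off proteins, moved in opposite directions in the 2 genotypes. It was at 28296, 25864 and 24509 in sgControl DMSO libraries and at 35069, 32400.0 and 33794 with abemaciclib, a rise of 1.29-fold (adjusted p = 8.18e-09). In knockout cells it was at 26914, 27161 and 27432 in DMSO and at 15524, 14867 and 16248 with abemaciclib, a fall of 1.75-fold (adjusted p = 1.41e-37). The acid phosphatase *ACP2* did likewise, with 4292, 4181 and 3876 rising to 6976, 6644 and 6639 in sgControl cells and 4278, 4189 and 4166 falling to 2793, 2853 and 2786 in knockout cells. *ACP2* was singled out after its values were seen. *ACP5*, tartrate-resistant acid phosphatase, known from osteoclasts and macrophages, was also named after its values were seen. It was at 11.2, 1.8 and 8.8 in sgControl DMSO libraries and 77.6, 56.7 and 101 with abemaciclib, and at 4.1, 9.9 and 6.8 in knockout DMSO libraries and 86.1, 60.0 and 81.7 with abemaciclib. The rise was of like size in both genotypes, log2 3.42 ± 0.42 and 3.42 ± 0.47, from very low counts. *SMPD1*, *ASAH1* and *LIPA* rose by log2 0.54 to 1.00 in sgControl cells.

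Of the membrane proteins, *LAMP2*, a major glycoprotein of the lysosomal coat, rose most. In sgControl cells it was at 7889, 7959 and 7581 in DMSO and at 18838, 17112 and 17563 with abemaciclib, and in knockout cells at 6756, 6130.2 and 6568 in DMSO and 8996, 8745 and 9097 with abemaciclib. No 2 of the 4 groups overlapped. The rise was 2.28-fold in sgControl cells (adjusted p = 2.73e-105) and 1.38-fold in knockout cells (adjusted p = 2e-15). *MCOLN1*, the calcium channel TRPML1, with 2 copies of the palindromic word just before its start, was at 1424, 1322 and 1207 in sgControl DMSO libraries and 2279, 2237 and 2188 with abemaciclib. Knockout libraries held 1336, 1564 and 1531 in DMSO and 1693, 1629.9 and 1715 with abemaciclib, and their smaller difference (0.18 ± 0.08) did not pass (adjusted p = 0.062).

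*HGSNAT*, a transmembrane acetyltransferase of heparan sulfate breakdown, rose by log2 0.76 in sgControl cells and by 0.49 in knockout cells. Its values were 1760.3, 2237 and 2175 in sgControl DMSO libraries, 3415, 3534 and 3508 with abemaciclib, 2455, 2340.2 and 2399.8 in knockout DMSO libraries and 3279.6, 3394 and 3423 with abemaciclib. *CD63*, a tetraspanin of late endosomes and lysosomes, was at 47620.0, 37266 and 32813 in sgControl DMSO libraries and 61812, 53484 and 55732 with abemaciclib, and at 30856, 32393 and 30646 in knockout DMSO libraries and 40850.4, 36719 and 38599 with abemaciclib. Its rise passed in both genotypes (log2 0.54 ± 0.11 and 0.31 ± 0.11). *LAPTM4B*, a transmembrane protein of late endosomes, went down slightly in sgControl cells, from 28233, 23828 and 21436 to 21921, 19712 and 20497 (fall of 1.18-fold, adjusted p = 0.00924). The groups overlapped, and without sgControl abemaciclib replicate 2 the fall did not pass (adjusted p = 0.065). Knockout libraries held 27514, 28261 and 27924 in DMSO and 29764, 28319.9 and 28829.9 with abemaciclib. *NPC1*, *LAPTM4A*, *SCARB2* and *CLN3* rose by log2 0.50 to 0.77 in sgControl cells. *CLN3* averaged only 39.3 normalized counts over all libraries. Its sgControl groups overlapped, with 25.6 to 36.3 in DMSO and 32.3 to 65.2 with abemaciclib. Its rise, at an adjusted p of 0.0248, no longer passed when any 1 of 4 libraries was left out (adjusted p up to 0.19).

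The V-ATPase has a cytosolic V1 part that splits ATP and a membrane V0 part that passes protons. Its accessory protein gene *ATP6AP1* stood well above the others. It was at 22903, 21313 and 18387 in sgControl DMSO libraries and 68110.5, 62233 and 61566 with abemaciclib, a 3.07-fold rise (adjusted p = 5.23e-103). Knockout libraries held 18701, 19815 and 18938 in DMSO and 20596, 20588 and 20447 with abemaciclib, which did not overlap but differed only by log2 0.10 ± 0.07 (adjusted p = 0.334).

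Of the pump subunits proper, *ATP6V0A1* of V0 rose by log2 0.79 ± 0.08, from 6917, 6675 and 5840.3 to 12356, 10919 and 10321, in sgControl cells. Its knockout values were 6386, 6780.3 and 6445 in DMSO and 7224, 6474 and 6639 with abemaciclib, which overlapped. *ATP6V1H*, the regulatory H subunit of V1, was at 4195, 3623 and 3501 in sgControl DMSO libraries, 5201, 4960.2 and 5025 with abemaciclib, 3179, 3142 and 3369.5 in knockout DMSO libraries and 3780.2, 3677 and 3621 with abemaciclib. It alone of the 7 passed in both genotypes (log2 0.43 and 0.19), and the knockout rise did not pass when any 1 of 4 libraries was left out (knockout DMSO replicate 1 or 2, knockout abemaciclib replicate 1 or 2, adjusted p up to 0.112). *ATP6V1A*, the catalytic A subunit, was at 4596, 5189.5 and 5624 in sgControl DMSO libraries and 6118, 6871 and 6491 with abemaciclib (log2 0.34 ± 0.09, adjusted p = 0.000297; 0.20 and 0.126 with total-count factors), and at 5100.1, 4483 and 4697 in knockout DMSO libraries and 5032, 5304 and 4515 with abemaciclib. *ATP6V0D1* rose by log2 0.41, and *ATP6V1B2* and *ATP6V1C1* did not pass (-0.05 ± 0.04 and -0.08 ± 0.05).

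**Figure D2:**
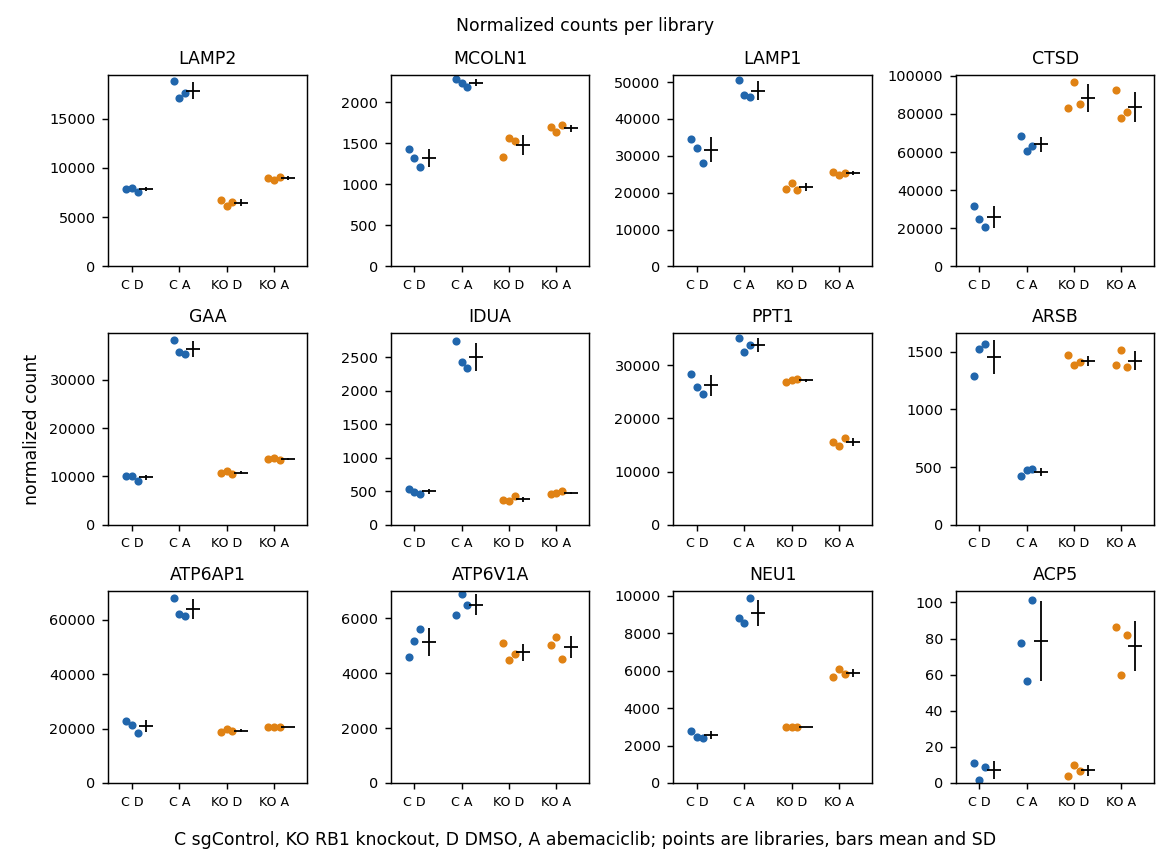
Normalized counts of 12 lysosomal genes in each library (points) with the group mean and SD (bars), with axes starting at 0. GAA, IDUA and ATP6AP1 are high only in sgControl cells on abemaciclib, CTSD is high in both knockout groups, PPT1 falls on abemaciclib in knockout cells, ARSB falls in sgControl cells, and ACP5 rises alike in both genotypes.

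The second question was how much of the response was left without *RB1*. In knockout cells abemaciclib raised 23 of the 53 genes and lowered 4 (*PPT1*, *ACP2*, *CTSL* and *IDS*), and 26 did not pass. Over all 18546 genes tested, 14.9% rose and 15.1% fell, and among the expressed genes the shares were 18.3% and 22.3%. The members' median log2 fold change was 0.183, against 0.0168 over all genes tested. Only *ACP5* and *CTSS*, both with a mean normalized count under 100, rose 2-fold or more. That is 2 of 53 members, beside 557 of the 18546 genes tested. The rises of *LAMP1*, *IDUA*, *GRN*, *CD63*, *GLB1* and *ATP6V1H* and the fall of *CTSL* each failed to pass when any 1 of 3 or 4 of the knockout libraries was left out (adjusted p up to 0.189). The members' share of counts went from 0.741% ± 0.0078 to 0.78% ± 0.0095 (SD, n = 3). By class, 6 of 10 membrane genes, 16 of 36 lumenal genes and 1 of 7 V-ATPase genes rose.

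**Figure D3:**
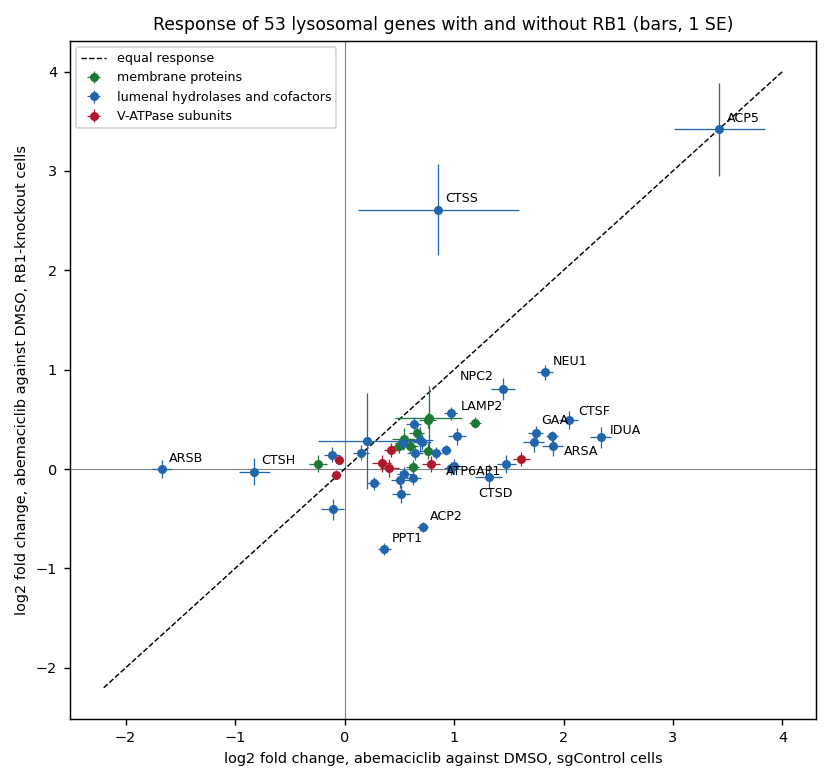
Log2 fold change of 53 lysosomal genes on abemaciclib in sgControl cells (horizontal axis) and in RB1-knockout cells (vertical axis), with bars of 1 SE and a dashed line of equal response. Most points lie below the line, with IDUA at 2.34 against 0.32 and PPT1 at 0.36 against -0.81, while ACP5 lies on it and CTSS and ARSB above it.

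The test of the difference itself, the response in knockout cells minus that in sgControl cells, was negative past the threshold for 38 of the 53 genes and positive for 5, and 10 did not pass. Over all 20932 genes tested, 20.3% were negative and 21.1% positive, and among the expressed genes the shares were 30.0% and 29.3%. The members' median was -0.475 against 0.0259 over all genes tested. The response was smaller in knockout cells for 27 of 36 lumenal genes, 7 of 10 membrane genes and 4 of 7 V-ATPase genes. The most negative values were -2.02 ± 0.14 for *IDUA* (adjusted p = 6.62e-45), -1.67 ± 0.14 for *ARSA* (4.06e-31) and -1.57 ± 0.08 for *GAA* (7.25e-85). *CTSF* and *ATP6AP1* followed at -1.55 and -1.52. The positive ones were *ARSB* (1.67 ± 0.13, adjusted p = 9.5e-38) and *CTSH* (0.80 ± 0.19, 0.000144), which fell only in sgControl cells, then *LAPTM4B* (0.30 ± 0.12, 0.0323), *CTSC* (0.26 ± 0.10, 0.0303) and *ATP6V1B2* (0.15 ± 0.06, 0.0443). With the replicate number as a block *CTSC* and *ATP6V1B2* no longer passed (adjusted p = 0.054 and 0.0965), which left 3 positive genes, and leaving out single libraries left 2 to 5. The negative differences of *ATP6V1H*, *HGSNAT* and *FUCA1* did not pass when any 1 of 11, 9 and 9 libraries was left out (adjusted p up to 0.14, 0.0942 and 0.175).

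Combining both tests, 38 genes rose in sgControl cells and responded less without *RB1*, against 16.1% of all genes tested. The pattern shares given here are over all 22723 genes tested in the sgControl response, of which 11885 were expressed genes. They were not worked out for expressed genes alone, where each of the 2 tests had a higher share. There 34.6% rose in sgControl cells and 30.0% had a negative difference, against 25.0% and 20.3% of all genes tested. Of these 38, 19 still rose in knockout cells, 16 did not pass there and 3 fell (*PPT1*, *ACP2* and *CTSL*). Among the 19 were *NEU1*, *NPC2*, *SGSH*, *LAMP2* and *HGSNAT*, which rose by log2 0.46 to 0.97 in knockout cells. The 16 included *PSAP*, *MAN2B1*, *SMPD1*, *CTSB*, *ATP6AP1* and *CTSD*. The mean of *CTSD* in knockout DMSO libraries, 88390, was already above its 63980 in sgControl libraries on abemaciclib. Another 3 genes, *CD63*, *TPP1* and *ACP5*, rose in both genotypes with no difference past the threshold, against 3.19% of all genes. The 95% intervals of the difference were -0.53 to 0.07 for *CD63*, -0.36 to 0.01 for *TPP1* and -1.23 to 1.23 for *ACP5* and so include weaker responses. Total-count factors gave 9 genes in place of these 3, and leaving out single libraries gave 3 to 6, the 6 without knockout abemaciclib replicate 1. No member rose more without *RB1* than with it by DESeq2 or edgeR, against 4.48% of all genes, and at an unadjusted p under 0.05 there were 2, *CTSS* and *ATP6V1B2*. The remaining 12 genes had other patterns.

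**Figure D4:**
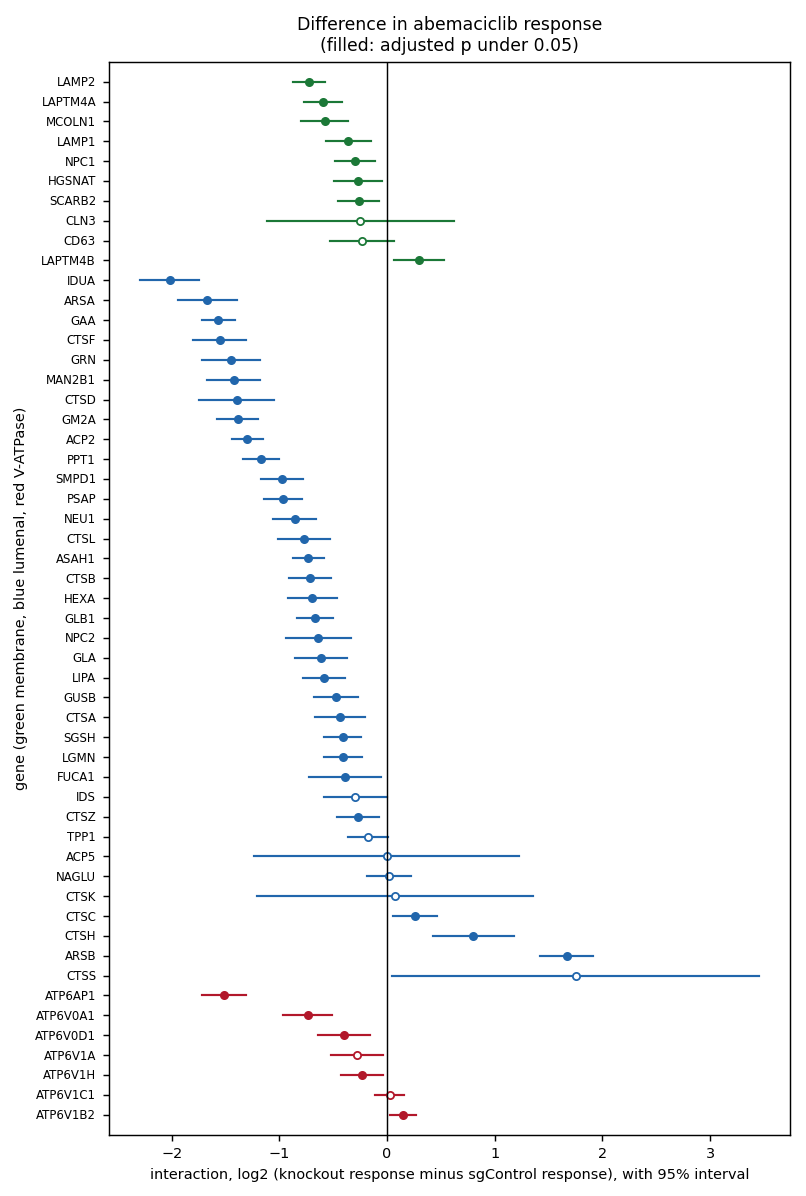
Difference in abemaciclib response between genotypes on the log2 scale (knockout minus sgControl) for each of 53 lysosomal genes, with 95% intervals, and filled points where the adjusted p was under 0.05. 38 genes lie below 0 with filled points, from IDUA at -2.02 upwards, 5 lie above 0 with filled points, and the widest intervals belong to CTSS, CTSK, ACP5 and CLN3, the members with the fewest counts.

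Promoters with TCACGTG were found in 8 of the 28 genes with a smaller response without *RB1* that had a promoter sequence (28.6%). These 28 are most of the 36 members searched, so their share could hardly differ from the 25.0% of all 36. The word was in 0 of 3 promoters of genes that rose in both genotypes without a detectable difference. It was in 1 of 5 promoters of genes with other patterns, too few to compare. All 9 holders of the word, among them *CTSA*, *CLN3* and *ATP6V0D1*, rose in sgControl cells, but so did most members without it. Of the genes with the most negative differences given above, *GAA* and *CTSF* held the word. *IDUA* and *ATP6AP1* had none of the searched words in the window, and *ARSA* had no promoter sequence. The part of the word in the responses was not tested.

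The third question was how the members differed between genotypes without drug and under it. In DMSO 11 of 53 genes were higher in knockout cells, 13 were lower and 29 did not pass, with a median of -0.0396. Over all 16755 genes tested 19.2% were higher and 18.2% lower, so the members' shares were close to those of all genes. Leaving out sgControl DMSO replicate 3 or knockout DMSO replicate 3 brought the count of higher genes to 7, and leaving out sgControl DMSO replicate 1 gave 14 higher and 14 lower. *CTSD* stood apart at 3.44-fold higher in knockout cells (1.78 ± 0.13, adjusted p = 1.46e-43). *CTSH* and *CTSZ* were 1.70-fold and 1.62-fold higher, and *NPC2*, *FUCA1* and *LAMP1* were 1.58-fold, 1.48-fold and 1.47-fold lower. *CTSS* was higher by log2 2.68 ± 0.67 (adjusted p = 0.000322) at a handful of counts.

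*LAMP1*, a major lysosomal membrane glycoprotein, has its gene near the end of chromosome 13, the chromosome of *RB1*. It was at 34682, 32184 and 27953 in sgControl DMSO libraries, 50545, 46508 and 46091 with abemaciclib, 21101, 22719.5 and 20632 in knockout DMSO libraries and 25665, 24762 and 25432 with abemaciclib. Abemaciclib raised it in both genotypes (1.51-fold and 1.18-fold), and it was lower in knockout cells by log2 0.56 in DMSO. Of 101 expressed genes from *RB1* to the end of chromosome 13, 94 were below 0 in the same comparison and their median was -0.688. The 21 genes within 5 Mb of *LAMP1* had a median of -0.677. The part of this regional difference in the *LAMP1* values was not tested, and without *LAMP1* the counts of members in DMSO were 11 higher and 12 lower.

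**Figure D5:**
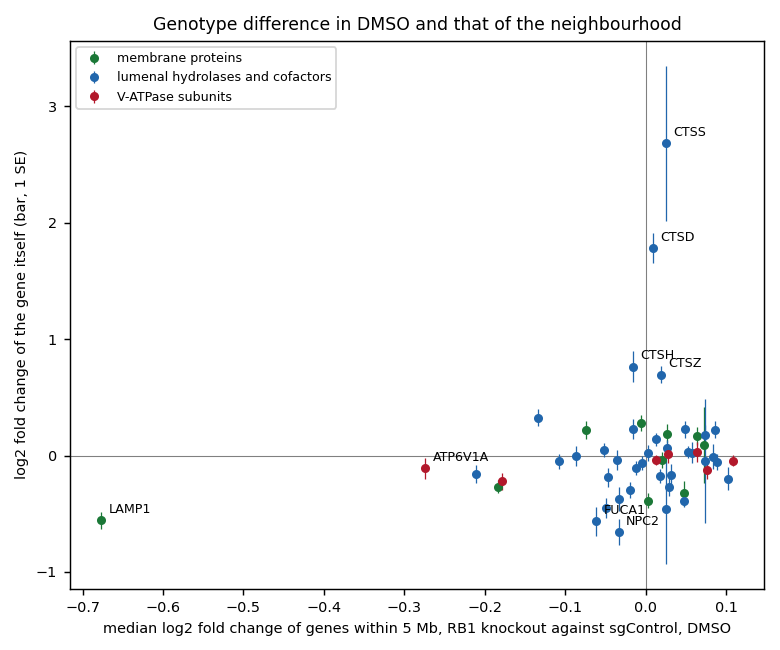
Log2 fold change of each lysosomal gene between RB1-knockout and sgControl cells in DMSO (vertical axis, bars of 1 SE) against the median of the genes within 5 Mb of it (horizontal axis). LAMP1 lies apart at -0.56 with a neighbourhood at -0.677, while CTSD at 1.78 and CTSS at 2.68 have neighbourhoods near 0.

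Under abemaciclib the genotypes differed more. Of the 53 genes 38 were lower in knockout cells, 7 were higher and 8 did not pass, with a median of -0.566, against 27.4% lower and 28.5% higher over all 21529 genes tested. Among the expressed genes these shares were 38.2% and 36.2%. *IDUA* was 5.25-fold lower, *ARSA* 3.65-fold and *ATP6AP1* 3.11-fold lower. The 7 higher genes were *CTSS*, *ARSB* (3.10-fold), *CTSH* (2.96-fold), *LAPTM4B*, *CTSZ*, *CTSD* (1.31-fold) and *ATP6V1B2*, of which *ATP6V1B2* no longer passed with the replicate block (adjusted p = 0.07). This comparison shares its libraries with those above, so it is no separate evidence.

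Libraries of the 2 groups did not overlap for 44 of the 53 members in sgControl cells with and without drug, against 71.9% of the expressed genes. The corresponding counts were 39 members (61.7% of genes) for knockout cells with and without drug, 26 (51.8%) for the genotypes in DMSO and 47 (81.1%) for the genotypes in abemaciclib.

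Levels can be compared between genes only per length of transcript. Per kb of exon in GENCODE release 44, *CD63* (17160 normalized counts per kb as the mean of all libraries), *PSAP* (12230) and *CTSD* (11490) were highest. The place of *CTSD* rests on the knockout and abemaciclib groups, since in sgControl DMSO libraries it was at 4507 per kb, below *PPT1* at 7777. Over all libraries *CTSK* (2.80), *CLN3* (4.00) and *CTSS* (4.03) were lowest. Among V-ATPase genes *ATP6AP1* (5478) was above *ATP6V0D1* (2725) and *ATP6V1A* (842). These values hold only if the libraries covered whole transcripts, as the kit named in the labels does. Exons of 11 members overlap those of another annotated gene on the same strand, namely *CTSD*, *MCOLN1*, *ATP6V0A1*, *NPC2*, *CLN3*, *MAN2B1*, *HEXA*, *GLB1*, *IDS*, *NAGLU* and *TPP1*, so reads there may be split. On the opposite strand 19 members have such an overlap, including *IDUA* (with SLC26A1), *CD63* (with CD63-AS1) and *CTSD*, and their reads cannot be told apart if counting ignored strand.

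Other genes of the same pathways, listed by function, were counted in the sgControl response, and genes with too few counts for the test were left out of the counts. Of 13 tested V-ATPase genes of the 15 listed 10 rose, led among those averaging 100 normalized counts or more by *ATP6AP2* (0.82 ± 0.07), *ATP6V0E1* and *ATP6V0E2*. Among 23 tested of 24 other lysosomal hydrolases and cofactors 18 rose and 2 fell, and *ARSG* (1.93 ± 0.10), *PLD3* and *RNASET2* changed most at that level of counts. Of 22 tested among 25 other lysosomal membrane genes 10 rose and 6 fell, among them *SIDT2* (1.92 ± 0.06) and *CLCN7* upwards and *MFSD8* (-1.07 ± 0.12) downwards. Of 11 genes for sorting to the lysosome 7 rose and 2 fell, with *GNPTG* (1.75 ± 0.07), which helps to make the mannose 6-phosphate tag, ahead of the receptors *IGF2R* and *SORT1*. For 14 autophagy genes the counts were 7 and 2, with *WIPI1*, *GABARAPL1* and *MAP1LC3B* rising by log2 1.94, 1.61 and 1.30. These counts stand against 34.6% of expressed genes that rose and 38.0% that fell, and the membrane list, with 45.5% and 27.3%, lay nearest to them. The lists also count tested genes averaging under 100 normalized counts, such as *ATP6V1B1*, *ATP6V1C2* and *ATP6V1G2*, which rose, so the sets of genes are not alike. Over all genes tested 25.0% rose and 24.8% fell. The interaction was negative past the threshold for 9, 16, 8, 7 and 8 genes of these lists in the same order and positive for 0, 2, 5, 2 and 2, against 30.0% and 29.3% of expressed genes. For the membrane list the negative share was 36.4% of the tested genes. Its median was -0.0263, which also takes in listed genes with too few counts for the test.

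Of the 4 MiT/TFE genes 2 rose in sgControl cells. *MITF* rose by log2 0.85 ± 0.14 and *TFE3* by 0.51 ± 0.05 (adjusted p = 2.83e-09 and 1.7e-24), and *TFEB* did not pass (0.29 ± 0.15, adjusted p = 0.102). The differences between genotypes were -0.98 ± 0.20 for *MITF* and -0.31 ± 0.07 for *TFE3*, and that for *TFEB* did not pass (-0.41 ± 0.22, adjusted p = 0.129). *TFEC*, the fourth, averaged 3.63 normalized counts and passed only between genotypes under abemaciclib, where it was higher in knockout cells (3.49 ± 1.37, adjusted p = 0.0212) and the other three were lower.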

How the data were processed

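The values are raw read counts per gene, which the authors made before they deposited them: reads were trimmed with BBDuk, aligned to hg38 with STAR 2.7.5b and counted with featureCounts 2.0.1 against a GENCODE annotation, per the labels and the study's methods. The labels name a directional whole-transcript kit while the general methods describe a 3′ mRNA kit, and whether counting used strand or multi-mapping reads is not given in the sources used here. Of 60656 rows, the 44 without a gene name (0% of counts after rounding) were left out.

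DESeq2 1.42.0 in R 4.3.3 was fitted to all 12 samples with a term for group, median-of-ratios factors and unshrunken fold changes. Two-sided Wald p-values were adjusted by Benjamini–Hochberg over all genes left by independent filtering, with a threshold of 0.05, and every adjusted p not credited to another tool is from this fit. The contrasts were abemaciclib against DMSO in each genotype, their difference, and knockout against sgControl in each treatment. Normalized counts are counts divided by size factors, listed in the order of replicates 1 to 3. Intervals are normal 95% intervals from the SE. The procedure was tested on simulated counts in which a limited set of genes changed, in the sgControl abemaciclib group only. Scaling under changes as broad as those in these data was not tested by it. Alternatives were edgeR 4.0.16, total-count factors, no independent filtering, a minimum of 10 counts in 3 samples, fits to the compared groups only, a replicate block, and leaving out each library.

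The members, gene lists and tests were chosen with earlier results of these data known. Members with full values were, among those averaging 100 normalized counts or more, the 3 per class with the largest sgControl response, the 3 most negative and 3 most positive differences, the 3 largest changes in knockout cells and between genotypes in DMSO, the 3 highest per kb over all members, and LAMP1, LAMP2, CTSD, MCOLN1, CTSS, CTSK and ATP6V1A. In abemaciclib, same-numbered sgControl and knockout libraries deviated together (correlations 0.15, 0.259 and 0.112 over 11885 genes), so their numbers may mark pairs. The main fit had no replicate term, so its p-values ignore any such pairing. Only the replicate block, given as an alternative, took the numbers into account. For the remaining comparisons at least 1 pair was under 0.1. Positions are from GENCODE release 44, another release than that of the counts, and promoters from RefSeq, taking the first entry per symbol.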

Additional observations from a re-analysis of the deposited data

Results flagged for a closer look

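For 20 of the lysosomal genes given with full values, the response to abemaciclib differed between sgControl and *RB1*-knockout cells by the test of the difference itself (DESeq2, adjusted p under 0.05). Many of these genes were named for the size of this difference or of their responses, so the count is no separate result. Over all 53 members the difference was negative for 38 and positive for 5, against 30.0% and 29.3% of the expressed genes. The difference (knockout minus sgControl, log2) was -2.02 for *IDUA*, -1.67 for *ARSA*, -1.57 for *GAA*, -1.55 for *CTSF*, -1.39 for *CTSD*, -1.17 for *PPT1*, -0.968 for *PSAP*, -0.859 for *NEU1*, -0.641 for *NPC2* and -0.274 for *CTSZ* among the lumenal genes that rose in sgControl cells. Among membrane genes it was -0.727 for *LAMP2*, -0.581 for *MCOLN1*, -0.359 for *LAMP1* and -0.271 for *HGSNAT*, and among V-ATPase genes -1.52 for *ATP6AP1*, -0.738 for *ATP6V0A1* and -0.232 for *ATP6V1H*. It was positive for *ARSB* at 1.67, *CTSH* at 0.801 and *LAPTM4B* at 0.297. The smaller of these differences depended on single libraries: that of *HGSNAT* did not pass without any 1 of the 9 libraries other than sgControl DMSO (adjusted p up to 0.0942), that of *ATP6V1H* without any 1 of 11, sgControl DMSO replicate 1 excepted (up to 0.14), that of *LAPTM4B* without any 1 of 7 (up to 0.0908), and that of *CTSZ* without sgControl DMSO replicate 3, knockout DMSO replicate 2 or knockout abemaciclib replicate 1 (up to 0.0633).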

How the results depend on the processing

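Factors from total counts moved the median of all genes by -0.131 on the log2 scale in the sgControl response, by 0.136 in the difference between responses and by 0.114 between genotypes in abemaciclib. They gave 6 rather than 3 genes lower in sgControl cells on abemaciclib and 9 rather than 3 that rose in both genotypes without a detectable difference. Under them the negative differences of *SCARB2*, *NPC1*, *HGSNAT*, *CTSZ*, *SGSH*, *FUCA1* and *ATP6V1H* no longer passed, which left 31 of 38, nor did the sgControl rises of *CLN3* and *ATP6V1A*, and the values of *HGSNAT* between genotypes in abemaciclib and of *ATP6V0A1* in DMSO turned to 0.0633 and -0.0042. Without independent filtering 5 genes rose in both genotypes without a detectable difference. Fits to the compared groups only gave 7 rather than 11 genes higher in knockout cells in DMSO. With the replicate block 3 rather than 5 genes had a positive difference, *FUCA1* lost its difference (adjusted p = 0.0792), *CLN3* its sgControl rise (0.0521) and *GLB1* its knockout rise (0.0515). Among genes given by the naming rule, values near 0 that turned sign were, in knockout cells, *PSAP* (-0.000113 by edgeR) and *ARSB* (-0.00671 by edgeR, -0.00366 with the compared groups only, -0.000307 with the block).

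Leaving out each library in turn gave 42 to 44 genes higher and 2 to 5 lower in the sgControl response, 19 to 28 and 3 to 5 in the knockout response, 2 to 5 with a positive and 33 to 39 with a negative difference, 7 to 14 higher and 12 to 18 lower in knockout cells in DMSO, and 6 to 7 higher and 36 to 39 lower in abemaciclib. The genes with a smaller response without *RB1* numbered 33 to 39, those that rose in both without a detectable difference 3 to 6, and those that rose more without *RB1* 0 to 1. The 5 lower genes came without sgControl DMSO replicate 1, the 6 without knockout abemaciclib replicate 1, and the 1 without sgControl DMSO replicate 1 or sgControl abemaciclib replicate 1. Positive differences numbered 2 or 3 in the absence of any library other than sgControl DMSO replicate 1 or 3 or sgControl abemaciclib replicate 1. Over the same left-out libraries, 12 of the 53 genes changed sign between genotypes in DMSO, 3 in abemaciclib, 7 in the knockout response, 2 in the sgControl response and 3 in the difference, at adjusted p of 0.529 or more. For genes given by the naming rule these values spanned -0.119 to 0.0161 for *ARSB*, -0.0518 to 0.154 for *CTSF* and -0.0578 to 0.0616 for *ATP6V0A1* between genotypes in DMSO; -0.0468 to 0.028 for *ARSB*, -0.114 to 0.0419 for *CTSH*, -0.00353 to 0.0191 for *PSAP* and -0.00774 to 0.82 for *CTSK* in knockout cells; -0.0516 to 0.655 for *CTSK* and -0.0591 to 2.2 for *CTSS* in sgControl cells; and -0.372 to 0.618 for the difference of *CTSK*. Within these ranges, the value of *CTSF* without sgControl DMSO replicate 1 passed (0.154, adjusted p = 0.0203) and the others did not.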
